A study of Mus musculus with 9 samples.

Results

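The 10 genes of retinal dopamine and melatonin signalling, Th, Ddc, Slc18a2, Slc6a3, Drd1, Drd2, Drd4, Aanat, Mtnr1a and Mtnr1b, were followed by their symbols through gene tables of whole mouse retina. All 10 symbols were listed, among 25239 genes, in each of 9 libraries. The libraries were bulk RNA-Seq of C57BL/6J-background mice at P42, with 3 animals each of the genotypes +/+, Cre/+ and Cre/Cre, and both retinas of 1 mouse made 1 library. Cre/+ and Cre/Cre animals carried 1 and 2 Rbpms-CreERT2 alleles, in which a P2A-CreERT2 cassette (a tamoxifen-inducible Cre recombinase that is split off during translation) follows the coding sequence of Rbpms, an RNA-binding protein of retinal ganglion cells (RGCs). The +/+ mice came from the same litters and carried no cassette, the labels name no tamoxifen for any of the 3 genotypes, and the hour of collection is not given in the sources used here. The comparison asks whether the knock-in alleles leave the retinal transcriptome as it is. Because whole retina was sequenced, a tissue in which RGCs are a small share of the cells, fewer cells of a type and less RNA per cell cannot be told apart.

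Dopamine is the light-adaptation signal of the retina. It is made by a sparse class of amacrine cells, is released in light, and reaches photoreceptors, bipolar, horizontal and ganglion cells by diffusion through 2 classes of G protein-coupled receptor, D1-like receptors that raise cAMP and D2-like receptors that lower it. Melatonin is its counterpart of the night, made by acetylation and methylation of serotonin under control of the circadian clock. C57BL/6J mice are known for a defective Aanat allele and little melatonin.

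The start regions of the genes were read first, since cAMP and the clock are the textbook inputs to both pathways. RefSeq windows of 300 bases (GRCm38.p6, the assembly of mm10), 250 before and 50 after the annotated start, were found for 9 of the 10 genes, and Aanat had no entry. Ddc and Drd1 had more than 1 window. The palindromic cAMP response element TGACGTCA was present in the windows of Th and Slc18a2, the enzyme that starts dopamine synthesis and the transporter that packs dopamine into vesicles. It was found in 1.79% of 32851 windows of the genome. The palindromic E-box CACGTG, to which CLOCK and BMAL1 can bind, was present in the windows of Slc6a3 and Mtnr1a, and in 7.15% of all windows. TAATCC, the core of the sites of the photoreceptor factor CRX, searched on both strands, was in none of the windows of the 9 genes and in 7.06% of all. The stretches that hold the matches are shown 5′ to 3′ on the strand of the gene, with the matched letters in capitals. The element of Th starts 45 bases before the start of the gene (chr7:142900007-142900066, minus strand). That of Slc18a2 starts 4 bases before the start and runs into the first exon (chr19:59260822-59260881, plus strand). The E-boxes lie 197 bases before the start of Slc6a3 (chr13:73536524-73536583, plus strand) and 207 bases before that of Mtnr1a (chr8:45068874-45068933, plus strand).
Th: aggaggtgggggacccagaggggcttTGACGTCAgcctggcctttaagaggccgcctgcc
Slc18a2: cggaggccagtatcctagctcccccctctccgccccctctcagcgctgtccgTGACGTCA
Slc6a3: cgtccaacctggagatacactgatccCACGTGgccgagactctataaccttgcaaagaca
Mtnr1a: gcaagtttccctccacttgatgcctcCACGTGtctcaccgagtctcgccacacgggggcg
These matches are letters in a sequence, and binding was not measured.

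Levels are given in TPM, a transcript abundance scaled for gene length and library total, so that levels of different genes can be compared. The libraries held 4.05 to 4.65 aligned gigabases by the deposited coverage. The share of Rn45s, a ribosomal RNA precursor, was 9.21% of all TPM in Cre/Cre replicate 1 and 0.0827% to 0.336% in the other 8 libraries. Xist, expressed from the inactive X chromosome, was 2.08 to 3.16 TPM in Cre/+ replicate 3, Cre/Cre replicate 1 and Cre/Cre replicate 3. It was 516 to 585 TPM in the other 6, among them every +/+ library. By this measure +/+ held females only, Cre/+ and Cre/Cre held both sexes, and males were a larger share in Cre/Cre. Sex and genotype thus cannot be fully told apart in any comparison of genotypes. Summed markers of the lens were at 1054 TPM in Cre/Cre replicate 2 and at 14.4 to 234 TPM elsewhere. The retinal origin was plain from its defining genes: 10 photoreceptor markers, 7 amacrine markers and 8 ganglion cell markers were above 0 in every library, with summed levels of 39372 to 47612, 999 to 1205 and 1125 to 1635 TPM. Rbpms, the gene that carries the cassette, was 38.4 to 43.4 TPM in +/+, 31.3 to 33.1 in Cre/+ and 19.1 to 24.2 in Cre/Cre.

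The mean level over the 9 libraries spanned from Drd4 with 125 TPM, above 93.8% of the listed genes, to Mtnr1b with 0.0223 TPM. Drd1 (44.8), Drd2 (29.0), Slc18a2 (8.69), Th (5.21) and Ddc (1.42) followed Drd4 and had a mean of at least 1 TPM, the limit for the test between genotypes. Aanat (0.863), Mtnr1a (0.741), Slc6a3 (0.0551) and Mtnr1b were below it. The 3 receptors stood in the same order in 9 of 9 libraries, and their ranges did not overlap, although the lowest Drd1 (32.8 TPM) came close to the highest Drd2 (30.8). Slc18a2 and Th overlapped in range, but Slc18a2 was higher in 8 of 9 libraries, and likewise Ddc was above Aanat in 8 of 9. Aanat and Mtnr1a, with Aanat higher in 5 of 9 libraries, and Slc6a3 and Mtnr1b, with Slc6a3 higher in 3, were the neighbours that could not be told apart beyond their spread.

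**Figure D1:**
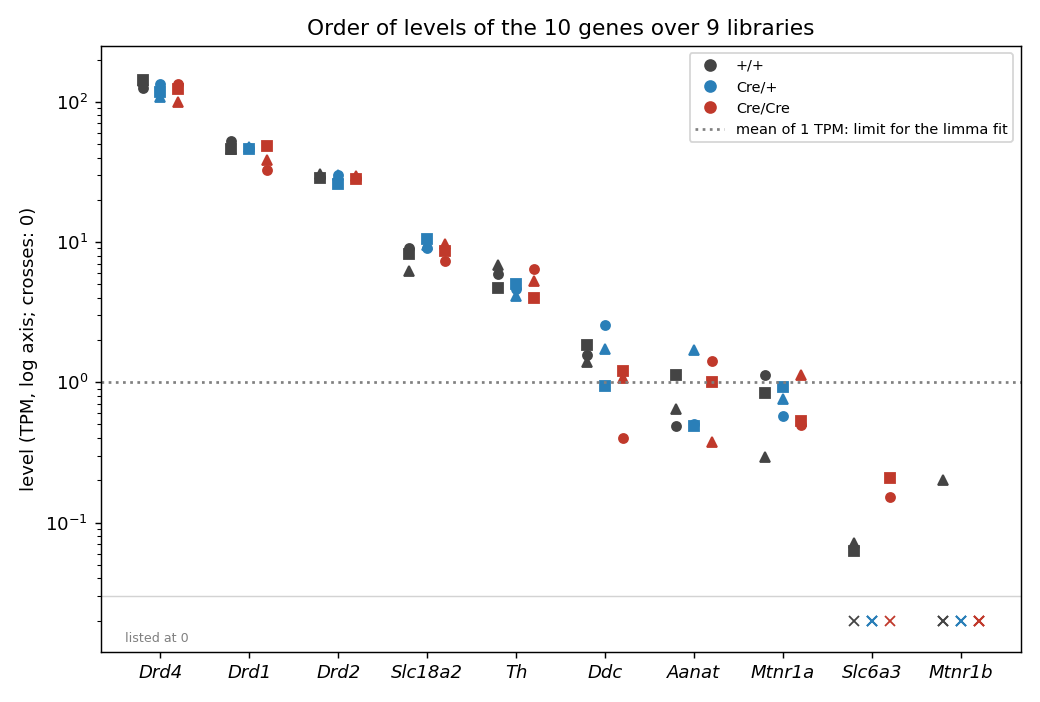
Level of each gene in TPM on a log axis, with 1 symbol for each of 9 libraries coloured by genotype and crosses in a lower band for libraries in which the gene was listed at 0. Genes are ordered by mean level, from Drd4 (125 TPM) to Mtnr1b (0.0223 TPM), and the dotted line marks the mean of 1 TPM required for the test.

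The synthesis genes were low. Th encodes tyrosine hydroxylase, the rate-limiting enzyme of dopamine synthesis (chr7:142892779-142899995, minus strand). It measured 5.92, 4.71 and 6.82 TPM in +/+, 4.63, 5.03 and 4.13 in Cre/+, and 6.37, 4.0 and 5.25 in Cre/Cre, in the order of the replicate numbers. The ranges of the 3 genotypes overlapped, with the highest value in +/+ replicate 3 and the lowest in Cre/Cre replicate 2. The means ± SD were 5.82 ± 1.06, 4.59 ± 0.450 and 5.21 ± 1.19 TPM (n = 3 each).

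Ddc encodes the decarboxylase that turns L-DOPA into dopamine (chr11:11814101-11898144, minus strand). It measured 1.56, 1.85 and 1.39 TPM in +/+, 2.58, 0.947 and 1.74 in Cre/+, and 0.399, 1.2 and 1.07 in Cre/Cre. Every Cre/Cre library was thus below every +/+ library, whereas the Cre/+ libraries spread across both. The lowest value belonged to Cre/Cre replicate 1, the library with the high Rn45s. An antisense gene, 1700042O10Rik, overlaps Ddc on the plus strand. It was listed at 0 in 9 libraries, and since the strand setting of the quantification is not given, Ddc is reported as uncertain in this respect.

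The transporters lay far apart. Slc18a2 encodes VMAT2, which loads dopamine and other monoamines into synaptic vesicles (chr19:59260878-59296012, plus strand). It measured 9.06, 8.18 and 6.21 TPM in +/+, 9.10, 10.5 and 9.54 in Cre/+, and 7.38, 8.62 and 9.64 in Cre/Cre. All 3 Cre/+ libraries were above all 3 +/+ libraries, but the margin between Cre/+ replicate 1 and +/+ replicate 1 was small. The library lowest in Slc18a2, +/+ replicate 3, was the one highest in Th.

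Slc6a3 encodes DAT, the plasma membrane transporter that takes dopamine back up and a standard marker of midbrain dopaminergic neurons (chr13:73536747-73578672, plus strand). It was listed at 0 in 5 of 9 libraries, among them all 3 Cre/+ libraries. The others were +/+ replicates 2 and 3 with 0.0626 and 0.0714 TPM and Cre/Cre replicates 1 and 2 with 0.153 and 0.209. Multiplied by the 3456 bases of its 1 annotated transcript, the deposited coverage came to 300, 296, 578 and 912 aligned bases in these 4 libraries, the amount that 1, 0.99, 1.93 and 3.04 read pairs would give. Where Slc6a3 was above 0, Th was 19.1 to 95.5 times higher. At this depth no difference of Slc6a3 between genotypes could be detected.

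The receptors made up most of the signal. Drd4 encodes the D2-like receptor of photoreceptors, through which dopamine lowers their cAMP in light (chr7:141292018-141296464, plus strand). It measured 125, 142 and 140 TPM in +/+, 135, 117 and 108 in Cre/+, and 134, 123 and 99.1 in Cre/Cre. The genotypes overlapped, since Cre/+ replicate 1 and Cre/Cre replicate 1 were above +/+ replicate 1, while the 2 lowest values came from Cre/Cre replicate 3 and Cre/+ replicate 3, both low in Xist. The third library low in Xist, Cre/Cre replicate 1, was at 134 TPM. With Xist as a covariate the log2 difference of Drd4 in Cre/Cre against +/+ went from -0.20 to -0.11. Drd4 alone held 57.1% to 67.7% of the summed level of the 5 dopamine receptors.

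Drd1 encodes the D1 receptor, which raises cAMP in horizontal, bipolar and other inner retinal cells (chr13:54051184-54055658, minus strand). It measured 52.2, 46.2 and 45.8 TPM in +/+, 46.5, 46.3 and 47.4 in Cre/+, and 32.8, 48.0 and 38.3 in Cre/Cre. The 6 +/+ and Cre/+ libraries lay within 45.8 to 52.2 TPM. Cre/Cre replicates 1 and 3 were below all of them, and Cre/Cre replicate 2 was above 5 of them. The lowest library was again the one with 9.21% of its TPM in Rn45s, and its summed photoreceptor (39372 TPM), amacrine (999 TPM), bipolar (1250 TPM), ganglion cell (1125 TPM) and Mueller glia (4387 TPM) markers were also the lowest of the 9. The ganglion cell sum was 1125 to 1357 TPM in Cre/Cre and 1546 to 1635 TPM in +/+. Rbpms itself is on that list, but made up only 19.1 to 24.2 TPM of the sum in Cre/Cre and 38.4 to 43.4 in +/+. The part of these markers in the low Drd1 was not tested.

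Drd2 encodes the D2 receptor, which on dopaminergic amacrine cells acts as the autoreceptor (chr9:49340403-49408168, plus strand). It measured 29.2, 28.7 and 30.8 TPM in +/+, 29.8, 25.8 and 29.9 in Cre/+, and 28.8, 28.3 and 29.6 in Cre/Cre. With a coefficient of variation of 4.80% over the 9 libraries, against 12.9% for Drd1 and 11.7% for Drd4, it was the steadiest of the 10 genes. Of the receptors outside the chosen genes, Drd5, the other D1-like receptor, measured 3.62 to 4.01 TPM in +/+, 3.62 to 3.75 in Cre/+ and 2.45 to 3.31 in Cre/Cre, and Drd3 was listed at 0 in all 9 libraries. Drd1 was 11.4 to 17.6 times higher than Drd5.

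The melatonin genes were near the lower end. Aanat encodes the N-acetyltransferase that sets the nightly rhythm of melatonin synthesis (chr11:116593687-116597680, plus strand). It measured 0.490, 1.13 and 0.649 TPM in +/+, 0.508, 0.485 and 1.71 in Cre/+, and 1.42, 1.01 and 0.372 in Cre/Cre. Each genotype held both a library near 0.5 TPM or below and a library above 1 TPM, and the ranges of the 3 genotypes overlapped. Asmt, which methylates the product of AANAT to melatonin, was listed at 0 in all 9 libraries.

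Mtnr1a, the gene of the melatonin receptor MT1 (chr8:45069107-45088506, plus strand), measured 1.13, 0.839 and 0.294 TPM in +/+, 0.576, 0.932 and 0.756 in Cre/+, and 0.493, 0.531 and 1.12 in Cre/Cre. Mtnr1b, the gene of MT2 (chr9:15862614-15874556, minus strand), was listed at 0 in 8 libraries and at 0.201 TPM in +/+ replicate 3. MT1 was thus the melatonin receptor with a measurable transcript in every library, and its genotypes overlapped throughout. Gpr50, an orphan relative of these receptors, was listed at 0 in 6 of 9 libraries.

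Of 10 further genes of melatonin synthesis, its regulation and related receptors, 9 were listed and 6 reached a mean of 1 TPM. They include Ywhaz, a 14-3-3 protein that binds and protects AANAT, with a mean of 331 TPM, and Crem, whose products bind cAMP response elements, with 18.9 TPM. Ywhaz measured 305 to 347 TPM in +/+, 350.1 to 368 in Cre/+ and 268 to 330 in Cre/Cre, and Crem 18.6 to 19.6, 19.9 to 20.7 and 16.5 to 18.2. Cre/+ thus stood above both other genotypes in each. Of the 6 genes, 4 (Nqo2, Crem, Ywhaz and Ywhae) were higher without overlap in Cre/+ than in +/+, where 11.9% of the 15198 genes tested between genotypes were, and 3 (Crem, Ywhaz and Ywhae) were lower without overlap in Cre/Cre than in Cre/+, where 7.23% were. None of these differences passed after adjustment over all tested genes, with the smallest limma adjusted p, that of Ywhaz, at 0.492 and 0.739.

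**Figure D2:**
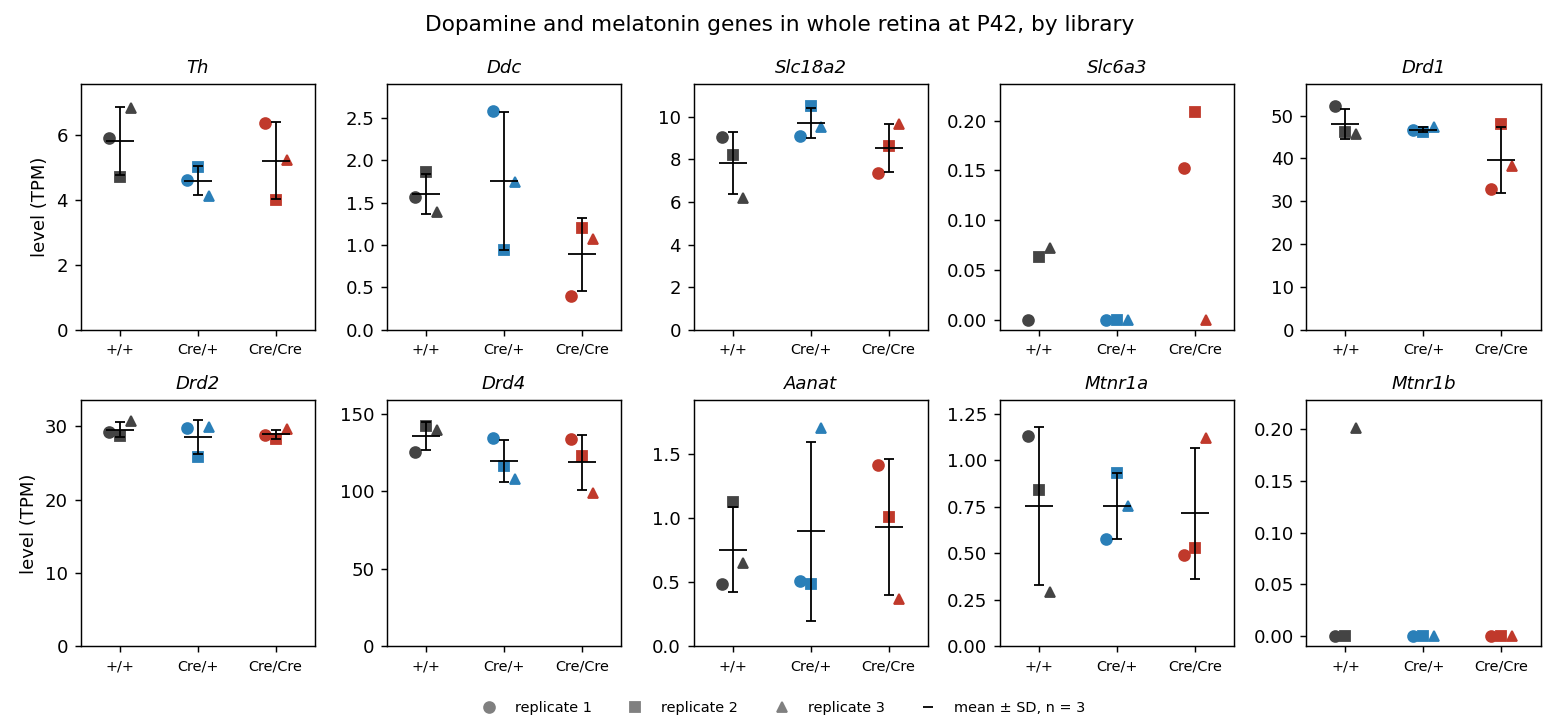
Level in TPM of each of the 10 genes by genotype on linear axes, with a circle, square and triangle for replicates 1, 2 and 3 and a bar for the mean ± SD (n = 3), left out for Slc6a3 and Mtnr1b, which were listed at 0 in 5 and 8 libraries. Ddc in Cre/Cre lies below +/+, Slc18a2 in Cre/+ lies above +/+, and the ranges of Th, Drd1, Drd2, Drd4, Aanat and Mtnr1a overlap.

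Differences between genotypes were tested with limma on log2(TPM + 1) over the 15198 genes with a mean of at least 1 TPM, and p-values were adjusted over all of them by the Benjamini-Hochberg method. On this scale the change of low genes is understated. Of the 10 genes, 6 entered the test. By limma, 0 of the 6 passed an adjusted p of 0.05 in Cre/+ against +/+, in Cre/Cre against +/+, in Cre/Cre against Cre/+ or in the trend, where the shares of all tested genes that passed were 0.00658%, 0.00658%, 0.0132% and 0.00658%. At an unadjusted p below 0.05, 0 of the 6 differed in Cre/+ against +/+ (background 10.7%), 1 in Cre/Cre against +/+ (6.97%), 1 in Cre/Cre against Cre/+ (6.58%) and 1 in the trend over knock-in alleles (6.24%).

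The 1 gene was Drd1 in each case. It was lower in Cre/Cre than in +/+ by a log2 difference of -0.28 (SE 0.11, 95% interval -0.52 to -0.05), which is 82.1% of the +/+ level on the log2(TPM + 1) scale, with an unadjusted p of 0.021 and an adjusted p of 0.656 by limma. Against Cre/+ the difference was -0.25 (interval -0.48 to -0.01, limma adjusted p = 0.740). The slope over 0, 1 and 2 knock-in alleles was -0.14 per allele (limma adjusted p = 0.767), and an exact two-sided permutation test of the slope in TPM over 1680 arrangements gave p = 0.0714. Without Cre/Cre replicate 1 the difference to +/+ shrank to -0.16, with Xist as a covariate to -0.15, and without Cre/Cre replicate 2 it grew to -0.43 (limma adjusted p 0.607, 0.994 and 0.2). Over the alternatives other than a library left out, this difference ran from -0.32 to -0.15. The lowest limma adjusted p among these, 0.527, came with short RNA genes, Rn45s among them, left out. The difference to Cre/+ was -0.12 without Cre/Cre replicate 1 and -0.39 without Cre/Cre replicate 2, and the slope per allele was -0.08 when Cre/Cre replicate 1 was left out and -0.07 once Xist entered the model. The exact permutation p of the slope was 0.0179 without Cre/Cre replicate 2, so this library decides on which side of 0.05 Drd1 falls. It was the only Cre/Cre library high in Xist (547 TPM). Cre/Cre replicates 1 and 3, the libraries low in Drd1, were at 2.08 and 3.16 TPM of Xist. The third library low in Xist, Cre/+ replicate 3 (2.82 TPM), was not low in Drd1, at 47.4 TPM. Without Cre/Cre replicate 2, low Xist and the Cre/Cre genotype therefore coincide more closely.

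For the remaining 5 genes the intervals of all contrasts included 0. Drd4 was at -0.18 in Cre/+ (interval -0.42 to 0.05, limma adjusted p = 0.536) and at -0.20 in Cre/Cre (interval -0.44 to 0.03, limma adjusted p = 0.780), both against +/+. Without Cre/+ replicate 3 the former was -0.11, and without Cre/Cre replicate 3 the latter was -0.08. Drd2 had the narrowest intervals, from -0.24 to 0.13 in Cre/+ and from -0.21 to 0.15 in Cre/Cre. Th was at -0.28 in Cre/+ (interval -0.65 to 0.10) and -0.14 in Cre/Cre (interval -0.51 to 0.23). Without +/+ replicate 3 these were -0.17 and -0.04, and without Cre/Cre replicate 2 the value in Cre/Cre was 0.0046. The widest interval was that of Ddc, from -1.03 to 0.05 in Cre/Cre against +/+ and from -1.07 to 0.01 against Cre/+.

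The 3 libraries of each genotype did not overlap in 1 of the 6 genes in Cre/+ against +/+ (Slc18a2, background 22.2% in either direction), in 1 in Cre/Cre against +/+ (Ddc, 10.8%) and in 0 in Cre/Cre against Cre/+ (12%). Ddc in Cre/Cre was at -0.49 against +/+ (SE 0.26, limma adjusted p = 0.768), and without Cre/Cre replicate 1 at -0.28. Slc18a2 in Cre/+ was at 0.29 (SE 0.15, limma adjusted p = 0.483), and without +/+ replicate 3 at 0.15. An exact permutation test of 3 against 3 libraries gave p = 0.1 for each, the smallest it can give. Among all tested genes, 8.05% lay lower without overlap in Cre/Cre against +/+ and 11.9% higher without overlap in Cre/+ against +/+, beside 1 of the 6 genes each. FPKM, median-ratio scaling and leaving out short RNA genes kept both groups apart. In the exact test of the slope over alleles, which also takes the 4 genes below 1 TPM, 0 of 10 had a p of at most 0.05, with p-values from 0.0714 for Drd1 to 0.882 for Mtnr1a, where 6.8% of all tested genes passed.

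**Figure D3:**
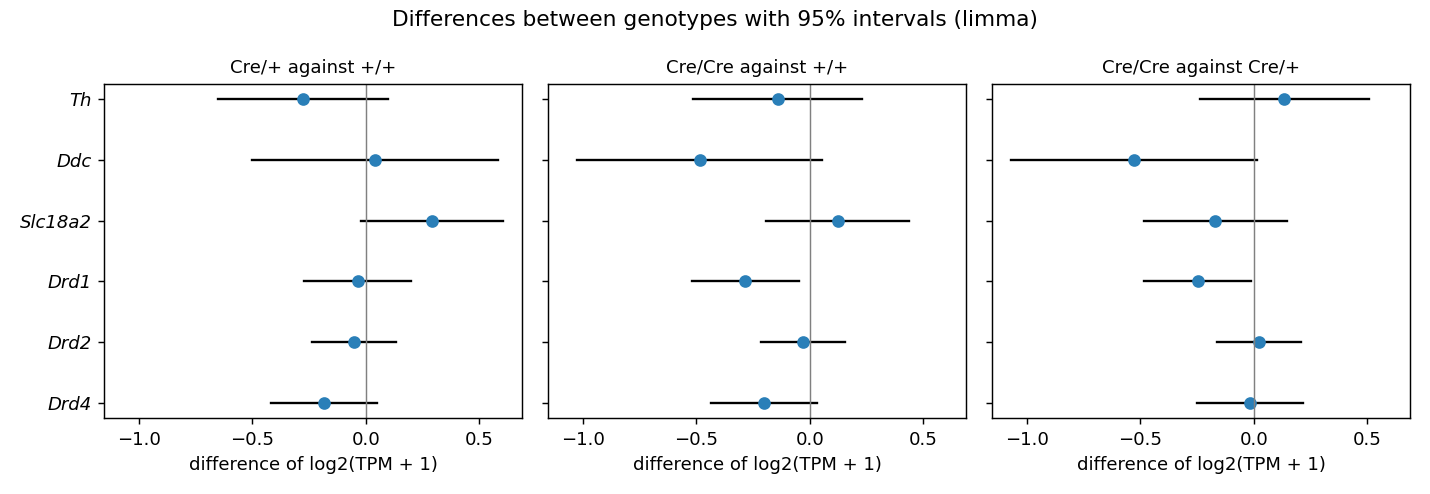
Difference of log2(TPM + 1) between genotypes for the 6 genes that entered the limma test, with points for the estimate and lines for its 95% interval. Of the 18 intervals, the 2 that exclude 0 belong to Drd1 in Cre/Cre, against +/+ and against Cre/+, and neither passed after adjustment over 15198 genes.

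The pathways around these genes were read from lists of 78 further genes. Of these 76 were listed and 59 tested, and 0 passed an limma adjusted p of 0.05 in any of the 3 comparisons. At an unadjusted p below 0.05, 4 were higher and 6 lower in Cre/+ against +/+, 0 higher and 6 lower in Cre/Cre against +/+, and 1 higher and 3 lower in Cre/Cre against Cre/+. The backgrounds were 4.9% and 5.82%, 1.58% and 5.39%, and 2.38% and 4.2% of all tested genes, in the same order. The median log2 difference of the 59 genes in Cre/Cre against +/+ was -0.07, and that of all tested genes was -0.02. Over all tested genes the balance of higher and lower moved with the scaling in Cre/Cre against +/+. At an unadjusted p below 0.05 by limma, 240 were higher and 819 lower on TPM. Once short RNA genes were left out and TPM rescaled, 869 were higher and 445 lower. For the 59 genes this balance was not counted under other scalings.

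Of 7 genes for synthesis and recycling of the cofactor tetrahydrobiopterin, which tyrosine hydroxylase needs, 6 were tested. Gch1, which starts cofactor synthesis, was at 0.369 to 0.860 TPM and below the limit. Spr, sepiapterin reductase, was 59.4 to 62.9 TPM in +/+, 44.9 to 58.0 in Cre/+ and 48.6 to 56.4 in Cre/Cre. Both knock-in genotypes lay below +/+ without overlap (background 10.3% and 8.05%), at log2 differences of -0.23 and -0.22 (limma adjusted p 0.422 and 0.692). Pcbd1, which helps to recycle the cofactor, was 22.2 to 22.9 TPM in +/+, 16.02 to 19.9 in Cre/+ and 20.0 to 24.7 in Cre/Cre, so that Cre/+ stood apart from both other genotypes. Its limma adjusted p was 0.384 in Cre/+ against +/+. Of the 6 tested genes, 3 (Pts, Spr and Pcbd1) were lower without overlap in Cre/+ than in +/+, and 1 (Spr) in Cre/Cre.

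Among the breakdown genes, Aldh1a1, an aldehyde dehydrogenase, was at a mean of 69.4 TPM. Maob, a monoamine oxidase, had the largest log2 difference of the 59 genes in Cre/Cre against +/+ at -0.61 (SE 0.20, limma adjusted p = 0.594). It measured 2.34, 2.45 and 3.53 TPM in +/+, 1.97, 1.98 and 1.91 in Cre/+, and 1.15, 1.91 and 1.37 in Cre/Cre. Both knock-in genotypes lay below +/+ without overlap (background 10.3% and 8.05%), while the margin between the lowest Cre/+ and the highest Cre/Cre library was under 0.01 TPM. Its lowest library was Cre/Cre replicate 1.

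Among 20 genes of receptor signalling, 20 were tested. Ppp1r1b, the gene of DARPP-32, a phosphoprotein downstream of D1 receptors, was 18.2 to 19.1 TPM in +/+ and 12.6 to 17.6 in Cre/Cre, at a log2 difference of -0.29 (limma adjusted p = 0.704). Cre/+ spread from 13.7 to 18.5 TPM across both. Drd5 lay lower without overlap in Cre/Cre against +/+ (background 8.05%), at -0.32 (limma adjusted p = 0.751). It was lowest in Cre/Cre replicate 1, as Drd1 and Ppp1r1b were. Adcy1, the calcium-stimulated adenylyl cyclase, was at a mean of 143 TPM, and Gnao1 and Gnas, G protein alpha subunits, at 353 and 511 TPM.

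Transcription factors of dopaminergic neurons were partly absent. Of 9, 3 reached 1 TPM: Nr4a2 with a mean of 9.77 TPM, Etv1 with 9.74 and Neurod6 with 2.72. Lmx1a and Foxa2 were listed at 0 in all 9 libraries, and Pitx3, Lmx1b and En1 in 7, 8 and 8. Etv1 was 6.74 to 9.26 TPM in +/+ and 9.68 to 13.6 in Cre/+, a log2 difference of 0.44 (limma adjusted p = 0.404), and 7.69 to 11.6 in Cre/Cre. Of the other monoamine genes, Tph2, a tryptophan hydroxylase that starts serotonin synthesis, was at 4.90 TPM, Tph1 at 0.705 and Slc6a4, the serotonin transporter, at 0.0539.

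Clock genes were read beside Drd4 and Aanat because both are known for daily rhythms in retina. Of 17 tested, 8 were lower without overlap in Cre/+ than in +/+ (Per1, Per2, Per3, Cry2, Nr1d1, Tef, Ciart and Bhlhe40), where 10.3% of all tested genes were, and 0 were higher, where 11.9% were. The count was 7 with median-ratio scaling and 8 on FPKM or without short RNA genes. At an unadjusted p below 0.05 by limma, 4 of the 17 were lower (background 5.82%) and 2 higher (background 4.9%). The 2 were Clock at a log2 difference of 0.21 and Nr1d2 at 0.23. In Cre/Cre against +/+, 1 of the 17 was lower without overlap (Per1, background 8.05%) and 1 higher (Npas2, background 2.7%). Per1, a negative limb gene of the clock, was 97.5, 95.6 and 103 TPM in +/+, 78.1, 68.4 and 65.4 in Cre/+, and 74.2, 92.4 and 52.5 in Cre/Cre. Its log2 difference was -0.48 in Cre/+ and -0.47 in Cre/Cre (limma adjusted p 0.409 and 0.656). Ciart was 39.7 to 43.0 TPM in +/+ and 22.6 to 39.1 in Cre/+, while Cre/Cre spanned 29.4 to 49.1. The library lowest in Drd4, Cre/Cre replicate 3, was also the lowest in Per1, and the next lowest in both was Cre/+ replicate 3. Both libraries were low in Xist. Per1 does not stand for the list: of the 17 clock genes, 3 were lowest in Cre/Cre replicate 3 and 1 in Cre/+ replicate 3. Cre/Cre replicate 1, with Drd4 at 134 TPM, was the lowest library for 6. The part of the hour of collection was not tested.

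**Figure D4:**
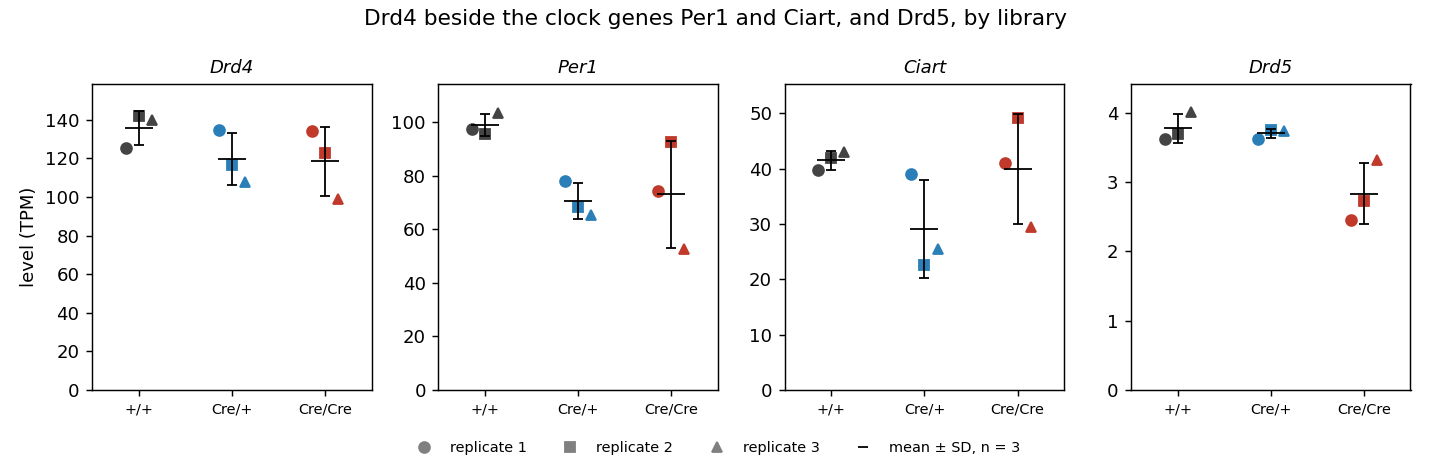
Levels in TPM of Drd4, the clock genes Per1 and Ciart, and Drd5 by genotype on linear axes, with 1 symbol per library and the mean ± SD (n = 3). The 3 +/+ libraries lie close together in Per1 (95.6 to 103 TPM), and Drd5 in Cre/Cre lies below the other genotypes. Cre/Cre replicate 3 is lowest in Drd4 (99.1 TPM) and Per1 (52.5 TPM), whereas Ciart is lowest in Cre/+ replicate 2 (22.6 TPM).

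The genes whose log2 level followed Th and Drd4 most closely across the 9 libraries were named as a description. For Th they were Med11 (Pearson r = 0.941), 5430403N17Rik (0.938) and Pfkfb4 (0.928), and for Drd4 they were Mospd3 (0.926), Vps28 (0.924) and Rps20 (0.916), out of 15197 genes compared. None of the 10 genes was among them. All 3 neighbours of Drd4 were lowest in Cre/Cre replicate 3, as Drd4 was, and all 3 neighbours of Th were highest in +/+ replicate 3, as Th was. Since the neighbours were picked by these same 9 values, a shared extreme library largely follows from the choice and is no separate observation. The 9 points share the TPM scaling, and a correlation above 0.8 was reached by 58 genes for Th and by 83 for Drd4.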

How the data were processed

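Bulk RNA-Seq of 9 whole-retina libraries (3 +/+, 3 Cre/+, 3 Cre/Cre, grouped by the genotype label) was used as deposited. Per the labels and methods, the authors made strand-specific poly(A) libraries and sequenced pairs of 150-base reads. Trimming was done by Trimmomatic, alignment (mm10) by HISAT2 and gene quantification by StringTie. Tool versions, the annotation and the strand setting are not given in the sources used here. The deposited TPM sum to 1000000 per library. The FPKM as deposited by the authors are the values before that scaling, and the deposited coverage is the mean depth over a gene's bases. Without read counts, the authors' DESeq2 comparison was not repeated.

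TPM were summed by gene name. Genes with a mean of at least 1 TPM entered limma 3.58.1 in R 4.3.3 (trend and robust prior) on log2(TPM + 1), all 9 libraries in 1 model with genotype as its only term. Exact permutation tests took every arrangement of the genotypes among the libraries compared. Depth was taken as coverage over FPKM, and precision rests on the spread between 3 mice per genotype. Replicates are separate mice. Same-numbered libraries were checked for pairing, and their deviations correlated at -0.116 to 0.128, so the numbers were not treated as pairs.

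Alternatives were a pseudocount of 0.1, no filter, a replicate block, Xist as a covariate, only the genotypes compared, FPKM, median-ratio scaling, 1330 short RNA genes left out, no robust prior, each library left out, and, added after seeing the data, counts of groups without overlap under other scalings. The genes, the pathway lists and the rule for named genes (all list genes, and the 3 genes most like Th and Drd4) were chosen with earlier results of these data known. The values of 1 listed gene are not reported here. The script was tested on simulated data. Promoter windows are RefSeq sequences.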

Additional observations from a re-analysis of the deposited data

How the results depend on the processing

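Calls after adjustment did not depend on the processing: for the 6 tested genes in 3 contrasts and the trend, 0 of 216 values with a library left out and 0 of 210 values under the other alternatives passed a limma adjusted p of 0.05, with smallest adjusted p of 0.2 and 0.288. Direction was kept in 205 and 202 of them. The exact test of the slope counted 0 to 1 of 10 genes with a library left out, and the 1 was Drd1 without Cre/Cre replicate 2.

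Some log2 differences changed sign. With Xist as a covariate, Drd1 in Cre/+ against +/+ came to 0.030, and Cre/Cre against Cre/+ to -0.0023 for Drd2 and 0.030 for Drd4. Without short RNA genes, Drd2 in Cre/Cre against +/+ came to 0.026, its trend to 0.013, and Drd4 in Cre/Cre against Cre/+ to 0.038. Median-ratio scaling put the latter at 0.016, and FPKM put Drd2 in Cre/Cre against Cre/+ at -0.0034. The cause was not tested.

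With each library left out in turn, ranges that crossed 0 were, against +/+, -0.17 to 0.27 for Ddc, -0.070 to 0.023 for Drd1 and -0.088 to 0.015 for Drd2 in Cre/+, and -0.017 to 0.22 for Slc18a2 and -0.28 to 0.0046 for Th in Cre/Cre. In Cre/Cre against Cre/+ they were -0.045 to 0.057 for Drd2 and -0.11 to 0.10 for Drd4. In the trend they were -0.026 to 0.00049 for Drd2 and -0.021 to 0.12 for Slc18a2.

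The replicate block left 0 calls among the 6 genes in each contrast, as without it, and 0 among the pathway genes. A pseudocount of 0.1 moved Ddc in Cre/Cre against +/+ to -0.89 and FPKM moved it to -0.23. Depth limits Slc6a3, Mtnr1b, Aanat and Mtnr1a, which no fit with the filter could test.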
